A study of Mus musculus with 10 samples.

Results

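Immediate early genes of several families were followed, 10 genes in all: the AP-1 subunit genes Fos, Fosb, Fosl1, Jun and Junb, the stress-induced partner Atf3, the zinc finger regulators Egr1, Egr2 and Egr3, and the nuclear receptor Nr4a1. They were picked by gene name with no measured value in the rule, though with earlier results of these data known, and all 10 were found among the 32132 genes of the annotated table, each under 1 identifier. The libraries were made from colons of adult wild-type C57BL/6 mice, and all had been given 3% DSS (dextran sulfate sodium, a salt that injures the colon lining and causes colitis) in their water for 7 days. Over the same 7 days, 1 group of 5 libraries came from mice given phosphate-buffered saline (PBS) into a vein at 200 ul per 20 g of body weight a day. The other group of 5 came from mice given the same volume of 4-HDHA made up in PBS, and the labels put the strength at 5 um. 4-HDHA is a hydroxylated product of docosahexaenoic acid, an omega-3 fatty acid. No group without DSS was analysed here, so the values compare 2 groups that both had colitis. Because whole colon was sequenced, fewer cells of a type and less RNA per cell cannot be told apart.

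Immediate early genes are transcribed within minutes of a growth factor, cytokine, injury or mechanical signal, without new protein synthesis, and their RNAs are short-lived. MAP kinase signals reach them through serum response factor with its ETS partners at CArG boxes, and through CREB at cyclic AMP response elements. FOS and JUN proteins pair into the AP-1 factor, EGR proteins bind GC-rich sites, and NR4A1 acts as a nuclear receptor with no known need for a ligand. In the gut they are known to respond to epithelial injury, to innate stimuli and to the handling and dissociation of tissue.

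The promoters of 4 genes from different families are shown because they carry the kinds of regulatory letters through which these genes are known to be induced. Each is the 250 bases before a transcription start, from RefSeq on GRCm38.p6, the assembly also called mm10. Fos lies at chr12:85473640-85473889 on the plus strand, Jun at chr4:95052223-95052472 on the minus strand, Egr2 at chr10:67537619-67537868 on the plus strand (1 of 5 starts listed for it) and Nr4a1 at chr15:101266596-101266845 on the plus strand. Capitals mark TGACG (the core of a cyclic AMP response element), TGACNTCA (a full element or an AP-1-like variant of it), the CArG box, GCGNGGGCG (an EGR site) and TATAAA, each on either strand.
Fos: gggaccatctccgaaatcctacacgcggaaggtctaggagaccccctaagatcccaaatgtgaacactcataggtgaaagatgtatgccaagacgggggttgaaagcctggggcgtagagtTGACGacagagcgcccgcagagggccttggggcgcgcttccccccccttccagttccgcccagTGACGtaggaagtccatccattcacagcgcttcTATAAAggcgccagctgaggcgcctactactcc
Jun: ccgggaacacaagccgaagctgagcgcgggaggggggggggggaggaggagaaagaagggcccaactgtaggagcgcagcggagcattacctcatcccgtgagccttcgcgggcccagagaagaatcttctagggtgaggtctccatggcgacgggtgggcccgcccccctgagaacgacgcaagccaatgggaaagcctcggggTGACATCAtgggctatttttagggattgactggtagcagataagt
Egr2: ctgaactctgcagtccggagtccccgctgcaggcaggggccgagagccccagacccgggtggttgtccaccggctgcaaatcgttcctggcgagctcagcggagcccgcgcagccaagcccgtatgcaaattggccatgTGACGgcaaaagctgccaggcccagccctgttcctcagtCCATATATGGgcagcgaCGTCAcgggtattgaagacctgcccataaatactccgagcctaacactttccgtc
Nr4a1: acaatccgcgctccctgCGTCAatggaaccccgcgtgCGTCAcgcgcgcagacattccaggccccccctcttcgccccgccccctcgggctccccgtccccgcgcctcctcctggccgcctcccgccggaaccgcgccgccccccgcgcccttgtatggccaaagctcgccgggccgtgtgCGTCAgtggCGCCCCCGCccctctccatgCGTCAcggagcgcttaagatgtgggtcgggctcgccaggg
In these windows Fos held TGACG at 129 and 66 bases before its start and TATAAA at 33 bases before it. Jun held TGACATCA at 45 bases before its start. Egr2 held a CArG box at 72 bases before the start, between copies of TGACG at 111 and 55 bases before it. Nr4a1 held 4 copies of TGACG and 1 EGR site, all on the minus strand.

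The table held 11 promoters for 7 of the 10 genes, and Fosl1, Egr1 and Egr3 had no entry. Several of these promoters are of Egr2, and some of those overlap one another. TGACG was found in 8 of the 11 promoters, against 17.8% of all 32851 promoters of the same length. Those 8 are of 6 genes (Atf3, Egr2, Fos, Fosb, Junb and Nr4a1). TGACNTCA stood in the promoter of Jun and in 7.49% of all promoters. Where its N is a G, it also holds TGACG. A CArG box stood in 4 of the 11 promoters, all of Egr2, against 1.47% of all promoters. GCGNGGGCG stood in 2 of the 11 (Fosb and Nr4a1), against 4.7%, and TATAAA in 1 (Fos), against 12.4%. The GC box GGGCGG, not capitalised here and able to overlap the EGR site, was in 7 of the 11, against 32.7% of all promoters. Those 7 are of 6 genes (all but Junb). TGANTCA, the consensus AP-1 site, was in 0 of the 11 promoters and in 6.75% of all of them. A match describes letters only, and a missing match says only that these letters are not in this window.

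Counts per library summed to between 50915365 and 66470519. The colon genes Muc2, Slc26a3 and Car1 were found in every library, at 1986 to 6450, 352 to 1195 and 53.6 to 1173 CPM (counts scaled to the size of the normalized library). Of 6 small intestine genes, Lct, Sis, Defa17, Apoa4 and Alpi reached at most 0.404, 0.637, 0.0866, 2.04 and 2.51 CPM, and Fabp6 ranged from 0.419 to 17.9 CPM. The mean of these 6 genes had a Pearson correlation of 0.710 (Spearman 0.782) with that of the 10 immediate early genes over the 10 libraries, centred within groups, and 0.726 without the 2 farthest libraries. The labels do not state that each library is a separate animal, so the p-values below measure the spread between these libraries. PBS replicate 4, singled out when these genes were chosen, is left out in a second comparison throughout, and it was the lowest PBS library for 7 of the 10 genes.

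Per length of transcript, in the deposited FPKM, Junb was the most abundant of the 10 genes, with a median of 74.9 FPKM over the 10 libraries and a range of 40.4 to 95.4. Fos followed with a median of 45.1 FPKM, Jun with 31.8 and Atf3 with 19.3. Egr1 had a median of 7.99 FPKM and Nr4a1 one of 2.055. The other 4 were low: 0.530 FPKM for Fosb, 0.461 for Egr2, 0.3795 for Fosl1 and 0.239 for Egr3. The ranges of every neighbouring pair in this order overlapped. Within a library, the order between neighbours held in all 10 libraries for Atf3 above Egr1, Egr1 above Nr4a1 and Nr4a1 above Fosb. It held in 9 libraries for Junb above Fos and for Jun above Atf3, and in only 3 for Fosl1 above Egr3, so the lowest genes cannot be ordered. The JUN and FOS subunits Junb, Fos and Jun thus stood at the top of the set, and their relatives Fosb and Fosl1 near its foot.

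None of the 10 genes differed between the 4-HDHA and PBS groups beyond the spread between libraries. All 10 passed the filter on low counts, 0 had an adjusted p under 0.05 (edgeR's quasi-likelihood test with Benjamini-Hochberg adjustment over 19615 genes), and 0 had an unadjusted p under 0.05. Over all genes tested, 0.0% passed the adjusted threshold and 14.8% had an unadjusted p under 0.05, 7.39% higher and 7.45% lower with 4-HDHA. The lowest adjusted p of any gene was 0.2825. DESeq2 called 308 of 31910 genes at the same threshold, 0 of them among the 10. It gave 1 of the 10, Egr3, an unadjusted p of 0.0264, while 11.8% of all genes in that fit had an unadjusted p under 0.05. Fold changes were above 0 for 5 of the 10 genes and below 0 for the other 5, with a median log2 fold change of -0.006 against 0.008 over all genes tested. The 2 groups overlapped for all 10 genes, while 2.79% of all genes had groups that did not overlap.

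Without PBS replicate 4, all 10 fold changes were lower than with it. Fold changes were then above 0 for 3 genes and below 0 for 7, with a median log2 fold change of -0.22 against 0.003 over all genes. Again 0 of the 10 passed at an adjusted or an unadjusted p of 0.05, and the groups overlapped for all 10. Over the 19971 genes tested in that comparison, 0.0% passed the adjusted threshold, 8.98% had an unadjusted p under 0.05 (4.37% higher, 4.61% lower) and 3.14% had groups that did not overlap. The median log2 fold change of the set therefore depended on this 1 library, and so it did on 4-HDHA replicate 4, without which 2 genes were above 0 and 8 below.

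**Figure D1:**
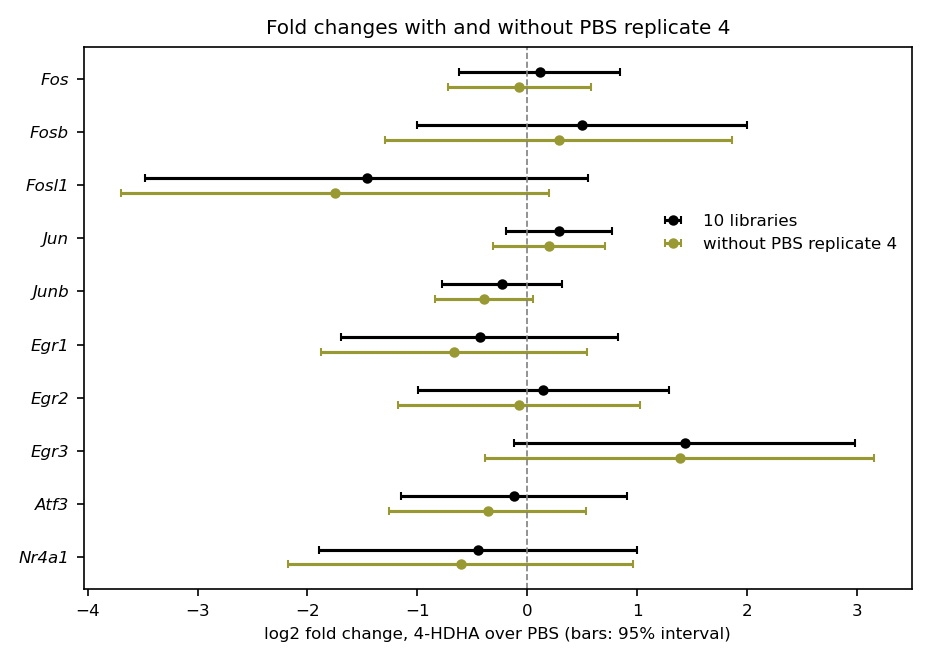
Log2 fold change of 4-HDHA over PBS for each of the 10 genes (horizontal axis), with 95% intervals from edgeR as bars, in 10 libraries (black) and without PBS replicate 4 (olive). Every interval crosses 0 in both comparisons, from the narrow one of Jun to the wide ones of Fosl1 and Egr3.

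The plot of fold changes shows how wide the intervals are. The interval for Jun ran from -0.20 to 0.77 on the log2 scale, that for Junb from -0.78 to 0.32, and that for Fos from -0.62 to 0.84, while for Fosb, Fosl1, Egr3 and Nr4a1 they reached 2.00, -3.47, 2.98 and -1.89 at their far ends. These genes varied more than most: the median biological coefficient of variation was 0.593 over the 10 genes against 0.315 over all genes, and 8 of the 10 lay above that median.

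Fos, which encodes the FOS subunit of AP-1 (chr12:85473890-85477273, plus strand, mm10), measured 124, 161, 119.7, 54.7 and 137 CPM in PBS replicates 1 to 5. It measured 84.1, 76.9, 143, 224 and 115 CPM in 4-HDHA replicates 1 to 5. PBS replicate 4 was the lowest of the 10 libraries and 4-HDHA replicate 4 the highest, and the remaining libraries of both groups lay among each other. PBS libraries averaged 119 ± 39.4 CPM and 4-HDHA libraries 129 ± 59.6 CPM (SD, n = 5 each), which gave a log2 fold change of 0.11 (SE 0.33, edgeR adjusted p = 0.888). Without PBS replicate 4 the sign turned, to -0.07 (SE 0.29, edgeR adjusted p = 0.935), and without 4-HDHA replicate 4 the value was -0.17.

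Fosb encodes a FOS relative that also pairs with JUN proteins (chr7:19302696-19310051, minus strand). Its CPM values were 2.55, 13.8, 4.23, 1.89 and 3.37 with PBS and 2.65, 4.06, 3.20, 20.4 and 6.31 with 4-HDHA. PBS replicate 2 and 4-HDHA replicate 4 stood far above the rest of their groups, and the other 8 libraries lay between 1.89 and 6.31 CPM. This gave a log2 fold change of 0.50 (SE 0.68, edgeR adjusted p = 0.730), and 0.28 (SE 0.71) without PBS replicate 4. It moved to -0.32 without 4-HDHA replicate 4 and to 1.28 without PBS replicate 2, so each of these libraries set its value.

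Fosl1, which encodes the FOS relative FRA1 (chr19:5447547-5455946, plus strand), had the lowest fold change of the set. It measured 1.74, 5.06, 2.20, 0.243 and 0.559 CPM with PBS and 0.1225, 0.290, 0.123, 1.69 and 1.32 CPM with 4-HDHA. 4-HDHA replicates 1 to 3 were at or under 0.290 CPM and the other two of that group within the PBS range, so the groups overlapped. Means of 1.96 ± 1.91 and 0.710 ± 0.743 CPM (SD, n = 5 each) gave a log2 fold change of -1.46 (SE 0.91, edgeR adjusted p = 0.438). Without PBS replicate 4 it was -1.75 (SE 0.87, unadjusted p = 0.0729, edgeR adjusted p = 0.548), and without PBS replicate 2 it was -0.74. The gene overlaps Ccdc85b on the other strand, which had 6995 counts over all libraries against 833 for Fosl1. Whether the counting used strand is not given in the sources used here, so reads of the 2 genes may not have been told apart.

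Jun encodes the main JUN subunit (chr4:95049034-95052222, minus strand) and was the steadiest of the 10 genes, with a highest library 2.16 times its lowest. Its values were 126, 96.2, 82.8, 82.9 and 160.5 CPM with PBS and 117, 119, 101.1, 179 and 152 CPM with 4-HDHA. PBS replicates 3 and 4 were lowest and 4-HDHA replicate 4 highest, and PBS replicate 5 exceeded 4 of the 5 4-HDHA libraries. The log2 fold change was 0.28 (SE 0.22, edgeR adjusted p = 0.521), and 0.20 (SE 0.23, edgeR adjusted p = 0.747) without PBS replicate 4. Its unadjusted p was 0.220, and it fell below 0.05 in 1 alternative, without PBS replicate 5. The antisense gene Junos overlaps Jun, with 433 counts against 70224.

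Junb encodes a JUN protein that can hold back JUN activity (chr8:84976910-84978718, minus strand). It measured 211, 153, 166, 80.65 and 153 CPM with PBS and 86.1, 105.6, 145, 162 and 152 CPM with 4-HDHA. PBS replicate 4 was the lowest library and the other 4 PBS libraries lay at 153 CPM or above, where 4-HDHA replicate 4 also stood. Its log2 fold change was -0.23 (SE 0.25, edgeR adjusted p = 0.652). Without PBS replicate 4 it was -0.39 (SE 0.20, unadjusted p = 0.0782, edgeR adjusted p = 0.551). It was -0.09 without PBS replicate 1 and -0.11 without 4-HDHA replicate 1.

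Atf3, a stress-induced member of the ATF family that pairs with JUN proteins (chr1:191170296-191218039, minus strand), measured 54.8, 78.5, 46.6, 14.4 and 47.4 CPM with PBS. With 4-HDHA it measured 27.2, 25.7, 22.1, 78.7 and 68.1 CPM. The 4-HDHA group was split, with replicates 1 to 3 below every PBS library but replicate 4, and replicates 4 and 5 above at least 3 of the other 4. The log2 fold change was -0.12 (SE 0.47, edgeR adjusted p = 0.913), and -0.36 (SE 0.40, edgeR adjusted p = 0.741) without PBS replicate 4. It was above 0 without PBS replicate 2 (0.12) and without 4-HDHA replicate 1, 2 or 3 (0.01, 0.02 and 0.05).

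Egr1, the zinc finger regulator that follows MAP kinase activity in many cell types, measured 39.5, 73.6, 75.2, 15.6 and 56.4 CPM with PBS. With 4-HDHA it measured 10.7, 15.3, 40.1, 92.4 and 34.2 CPM. PBS replicate 4 stood with 4-HDHA replicates 1 and 2 at the low end, and 4-HDHA replicate 4 was the highest of all. The log2 fold change was -0.43 (SE 0.57, edgeR adjusted p = 0.718) and -0.67 (SE 0.54, edgeR adjusted p = 0.648) without PBS replicate 4. Without 4-HDHA replicate 4 it was -1.02, and it was -0.20 without 4-HDHA replicate 1 and -0.23 without 4-HDHA replicate 2.

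Egr2, known for its role in Schwann cells and lymphocytes (chr10:67535475-67542188, plus strand), was low, at 2.39, 2.50, 2.57, 0.659 and 1.503 CPM with PBS and 0.960, 0.924, 1.21, 3.62 and 3.92 CPM with 4-HDHA. As for Atf3, 4-HDHA replicates 1 to 3 lay below 4 of the 5 PBS libraries, and replicates 4 and 5 were the highest of the 10. Its log2 fold change was 0.14 (SE 0.52, edgeR adjusted p = 0.908). It was -0.08 (SE 0.49) without PBS replicate 4, -0.09 without 4-HDHA replicate 4 and -0.20 without 4-HDHA replicate 5.

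Egr3, also known from lymphocytes (chr14:70077203-70082614, plus strand), had the highest fold change of the set and a very uneven 4-HDHA group. With PBS it was nearly level, at 1.35, 1.44, 0.992, 1.14 and 1.56 CPM. With 4-HDHA it measured 1.02, 0.670, 1.03, 3.86 and 10.9 CPM, so that replicates 4 and 5 were above all PBS libraries and the other three within or below their range. Means of 1.297 ± 0.229 and 3.49 ± 4.33 CPM (SD, n = 5 each) gave a log2 fold change of 1.43 (SE 0.70, unadjusted p = 0.0669, edgeR adjusted p = 0.355). Without PBS replicate 4 it was 1.39 (SE 0.79, edgeR adjusted p = 0.563), and without 4-HDHA replicate 5 it was 0.34. That library also had the most B cell RNA: a list of 10 B cell genes summed to 611 CPM in it, against 18.1 to 34.4 CPM in the other 4-HDHA libraries and 9.75 to 44.97 CPM with PBS. With the mean of that list as a covariate, an alternative chosen after seeing the data, the log2 fold change of Egr3 was 0.25 (edgeR adjusted p = 0.824). On the log2 scale that mean was 5.78 in 4-HDHA replicate 5 and at most 1.94 in the other libraries. The fit therefore acted much like leaving that library out. In 4-HDHA replicate 4, where Egr3 was at 3.86 CPM, the B cell genes summed to 34.4 CPM. The part of B cells in the level of Egr3 was not tested.

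Nr4a1 encodes the orphan nuclear receptor NUR77, known as a marker of antigen receptor signalling in lymphocytes and as a regulator of macrophages (chr15:101254269-101274795, plus strand). It measured 7.41, 28.5, 34.8, 9.25 and 7.05 CPM with PBS and 5.86, 5.04, 4.12, 24.8 and 24.1 CPM with 4-HDHA. Both groups were split: PBS replicates 2 and 3 and 4-HDHA replicates 4 and 5 were at 24.1 CPM or above, and the other 6 libraries at 9.25 CPM or below. The log2 fold change was -0.45 (SE 0.66, edgeR adjusted p = 0.751) and -0.61 (SE 0.70, edgeR adjusted p = 0.748) without PBS replicate 4. Without PBS replicate 3 it was -0.03, without PBS replicate 2 it was -0.20, and without 4-HDHA replicate 5 it was -0.81.

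**Figure D2:**
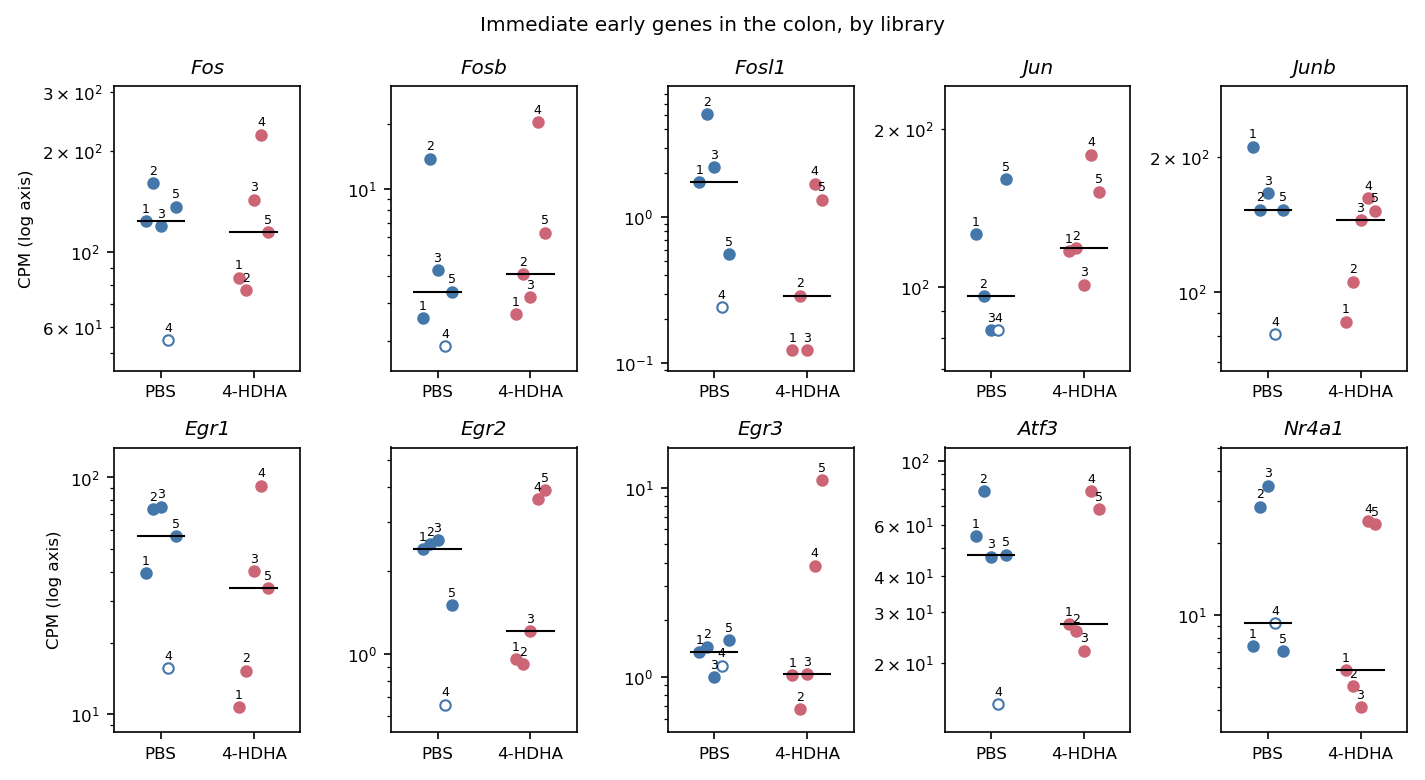
CPM of each of the 10 genes on a log axis in each library, PBS in blue and 4-HDHA in red, numbered by replicate, with the group median as a bar and PBS replicate 4 as an open circle. PBS replicate 4 is the lowest PBS library for 7 genes, and 4-HDHA replicate 4 is the highest 4-HDHA library for 8.

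The plot of the 10 genes by library shows differences between libraries of 1 group that many of the genes shared. PBS replicate 4 was below the mean of the 10 libraries for 10 of 10 genes, and the lowest library of all for 5. 4-HDHA replicate 1 was below the mean for 10 of 10 as well, replicate 2 for 9 and replicate 3 for 7. 4-HDHA replicate 4 was above the mean for 10 of 10 genes and the highest library of all for 5, and 4-HDHA replicate 5 and PBS replicate 2 were above it for 8 each. For 8 of the 10 genes, all but Fos and Egr1, 4-HDHA replicates 4 and 5 were both above all of replicates 1 to 3. This split was seen in these same values, the genes vary together, and the share of all genes with the same split was not counted. Among the pathway lists given below, the means of the other AP-1, other immediate early, feedback and AP-1 or EGR target genes had it too. Those of the upstream genes and of the EGR and NR4A relatives did not.

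On the log2 scale, averaged over the 10 genes, the PBS libraries stood at 0.14, 0.84, 0.40, -0.99 and 0.00 from the mean of all libraries. The 4-HDHA libraries stood at -0.89, -0.75, -0.59, 1.09 and 0.75. Both groups spanned almost the whole range, and the distance between the highest and the lowest 4-HDHA library was about as wide as that over all 10.

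**Figure D3:**
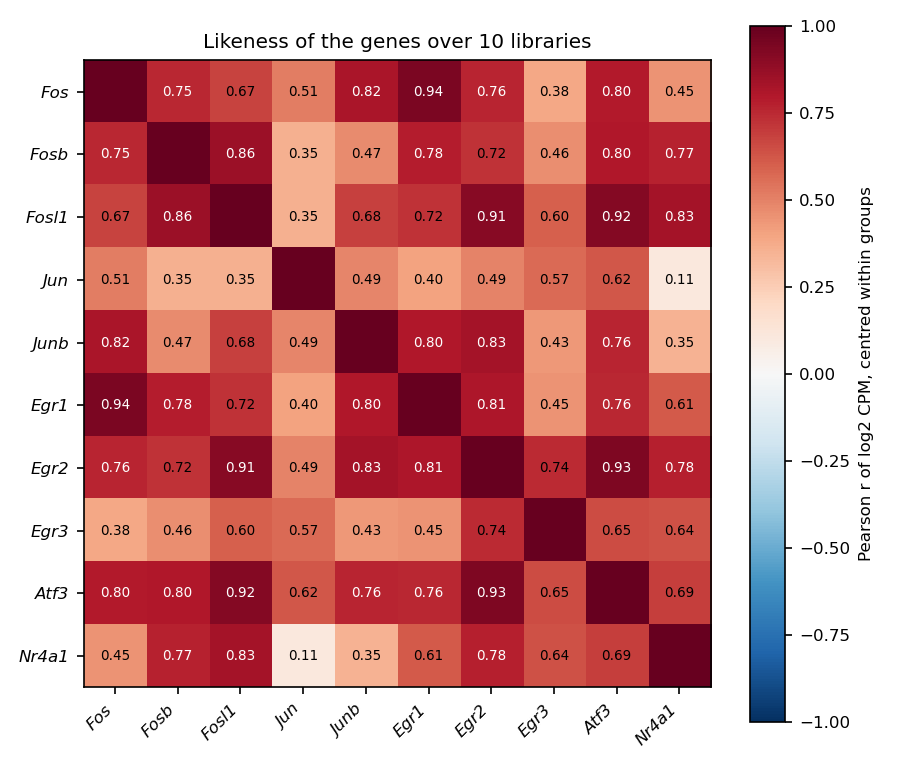
Pearson correlation of log2 CPM, centred within each group, for each pair of the 10 genes over 10 libraries (colour and printed value). All 45 pairs are above 0, from 0.11 for Jun with Nr4a1 to 0.94 for Fos with Egr1.

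The genes varied together within the groups. The map of pairwise correlations gives the Pearson correlation of log2 CPM over the 10 libraries, after each group was centred on its own mean, and the points of every pair share the same libraries. The median over the 45 pairs was 0.691, with 32 pairs above 0.5 and 0 below 0. The closest pair was Fos with Egr1, at a Pearson correlation of 0.940 and a Spearman correlation of 0.830, and at 0.874 without the 2 libraries farthest from the median. Egr2 with Atf3 gave 0.932 (Spearman 0.842), and Fosl1 with Atf3 gave 0.917 (Spearman 0.879). Egr2 was the most like the other members, with a median of 0.776 over its pairs, and Jun the least like them, with 0.491. Without centring, the median over all pairs was 0.66, and 0.627 without PBS replicate 4.

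Among 15476 other genes that averaged 1 CPM or more, the 8 whose pattern was most like the mean of the 10 genes were Hbegf, Calhm2, Areg, Gdf11, Tpbg, Phlda1, Hs3st1 and Slc25a25. Their Pearson correlations with that mean, centred within groups over 10 libraries, ran from 0.912 to 0.970. Hbegf, which encodes an EGF receptor ligand shed from the cell surface, was first, at 0.970 (Spearman 0.976, 0.937 without the 2 farthest libraries). Its values were 35.0, 45.3, 34.4, 16.8 and 29.1 CPM with PBS and 13.7, 14.5, 19.8, 39.9 and 25.7 CPM with 4-HDHA. PBS replicate 4 was the lowest PBS library and 4-HDHA replicate 4 the highest of its group, and the groups overlapped. Hbegf was picked for its likeness to the mean of the 10 genes, so this shared pattern is no separate result. Areg, which encodes the EGF receptor ligand amphiregulin, was at 0.941 (Spearman 0.952), after Calhm2 at 0.962 (Spearman 0.964). None of the 8 passed the adjusted threshold, and 1 had an unadjusted p under 0.05, Hs3st1, a heparan sulfate sulfotransferase, at a log2 fold change of -0.68 (SE 0.29, edgeR adjusted p = 0.323). The share of all genes tested past that unadjusted p was 14.8%.

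A further 6 lists place the 10 genes within their pathway, and none of their genes had an adjusted p under 0.05 in edgeR. Of 11 other AP-1 subunits and partners, among them Fosl2, Jund and the BATF and small MAF genes, 0 had an unadjusted p under 0.05 in either direction, and their median log2 fold change was 0.004. The share of all genes tested past that p was 14.8%. Jund, the JUN subunit made in most resting cells, averaged 107.5 ± 30.4 CPM in PBS libraries and 134 ± 27.6 CPM in 4-HDHA libraries (SD, n = 5 each; edgeR adjusted p = 0.467). The mean of this list followed that of the 10 genes at a Pearson correlation of 0.763 (Spearman 0.782) over the 10 libraries, centred within groups.

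Of 6 relatives and corepressors of the EGR and NR4A proteins, 5 passed the filter on low counts (not Egr4), and 2 of these had an unadjusted p under 0.05, or 1 without PBS replicate 4. The shares over all genes were 14.8%, and 8.98% without PBS replicate 4. One of the 2 genes was Nab1, which encodes a corepressor that binds EGR proteins. It measured 76.5, 88.1, 108, 80.6 and 77.3 CPM with PBS and 63.0, 59.6, 61.6, 56.4 and 63.3 CPM with 4-HDHA. Every 4-HDHA library was below every PBS library, and 2.79% of all genes tested had groups that did not overlap, in either direction. Means of 86.1 ± 13.1 and 60.8 ± 2.88 CPM (SD, n = 5 each) gave a log2 fold change of -0.50 (SE 0.11, unadjusted p = 0.000712, edgeR adjusted p = 0.2825), and -0.53 without PBS replicate 4. DESeq2 gave an adjusted p of 0.0119. The other was Wt1, a zinc finger gene related to the EGR family, which was nearly absent with PBS, at 0 to 0.385 CPM, and reached 2.67 CPM in 4-HDHA replicate 4 and 0 in replicate 5 (edgeR adjusted p = 0.329). Nab2, the other EGR corepressor and itself an EGR target, had a log2 fold change of 0.38 (SE 0.28, edgeR adjusted p = 0.508).

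Of 34 other immediate early genes, 2 were higher and 2 lower with 4-HDHA at an unadjusted p under 0.05, and without PBS replicate 4 these counts were 1 and 2. Of all genes tested, 7.39% were higher and 7.45% lower at that p, or 4.37% and 4.61% without PBS replicate 4. Gadd45b, a stress gene of the MAP kinase pathway, had 27.3 ± 5.93 CPM in PBS libraries and 39.7 ± 4.95 CPM in 4-HDHA libraries (SD, n = 5 each; log2 fold change 0.54, SE 0.16, edgeR adjusted p = 0.295). Btg1, an antiproliferative gene, had a log2 fold change of 0.50 (SE 0.20, edgeR adjusted p = 0.311). Gdf15, a secreted stress hormone, had 5.40 ± 2.40 and 2.28 ± 0.856 CPM (log2 fold change -1.24, SE 0.39, edgeR adjusted p = 0.299). The second lower one was Arc, best known from neurons and named here after its values were seen, at a log2 fold change of -1.63 (SE 0.70, edgeR adjusted p = 0.327). Its 34 genes had a median log2 fold change of -0.05, and -0.18 without PBS replicate 4, after which 9 rather than 16 were above 0. Their mean followed that of the 10 genes most closely of all the lists looked at, with a Pearson correlation of 0.937 (Spearman 0.952, 0.878 without the 2 farthest libraries).

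Upstream of the 10 genes, 16 genes of the SRF, ETS partner, MRTF and CREB group had a median log2 fold change of 0.02, and -0.04 without PBS replicate 4. Crtc2, a coactivator of CREB, had a log2 fold change of 0.18 (SE 0.10, edgeR adjusted p = 0.385), and the ETS partner gene Elk3 one of 0.53 (SE 0.26, edgeR adjusted p = 0.354). The mean of these 16 genes followed that of the 10 genes at a Pearson correlation of 0.704 (Spearman 0.673). A list of 18 feedback genes holds mostly genes that damp the MAP kinase path. It also holds Nfkbia and Tnfaip3, which restrain NF-kB signalling, and the RNA decay genes Zfp36, Zfp36l1 and Zfp36l2. Of the 18, Spred2 alone had an unadjusted p under 0.05, at 52.3 ± 5.25 CPM in PBS libraries and 42.1 ± 4.64 CPM in 4-HDHA libraries (SD, n = 5 each; log2 fold change -0.31, SE 0.11, edgeR adjusted p = 0.303). The share of all genes tested past that unadjusted p was 14.8%. The mean of the feedback genes followed that of the 10 genes at a Pearson correlation of 0.794 (Spearman 0.867), with PBS replicate 4 lowest and 4-HDHA replicate 4 highest in both.

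Downstream, 19 genes known to carry AP-1 or EGR sites had a median log2 fold change of -0.24, against 0.008 over all genes, with 7 above 0. Without PBS replicate 4 the median was -0.39, against 0.003 over all genes, with 5 above 0. Vim, which encodes the mesenchymal filament protein vimentin, and Csf1, a macrophage growth factor, were higher at an unadjusted p under 0.05, and Ccnd1, which encodes cyclin D1, was lower. Without PBS replicate 4, Ereg, an EGF receptor ligand gene named after its values were seen, was lower too, at a log2 fold change of -1.49. Of all genes tested, 7.39% were higher and 7.45% lower at that p, or 4.37% and 4.61% without PBS replicate 4. Ccnd1 measured 70.1, 102, 210.3, 115 and 49.3 CPM with PBS and 31.3, 35.0, 60.4, 40.1 and 63.3 CPM with 4-HDHA. Only PBS replicate 5 reached into the 4-HDHA range. Its log2 fold change was -1.25 (SE 0.37, edgeR adjusted p = 0.295), and -1.23 without PBS replicate 4. Vim and Csf1 had log2 fold changes of 0.69 (SE 0.26, edgeR adjusted p = 0.309) and 0.59 (SE 0.21, edgeR adjusted p = 0.303), and 4-HDHA replicate 4 was the highest library for both.

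Heat shock genes, which handling and heat also induce, are given beside the 10 genes for that reason. Most of the 11 are cytosolic, but Hspd1 and Hspe1 encode mitochondrial chaperonins. With 4-HDHA, 9 of the 11 were lower at an unadjusted p under 0.05, Hspd1 and Hspe1 among them, and 0 passed the adjusted threshold in edgeR. Hspb1 alone had a log2 fold change above 0, at 0.68 (SE 0.40, edgeR adjusted p = 0.420). At that unadjusted p, 7.45% of all genes tested were lower. The median log2 fold change of the 11 genes was -0.84, or -0.77 if PBS replicate 4 was left out. Their summed level was 2526 to 5426 CPM with PBS and 1944 to 2562 CPM with 4-HDHA. Hspa8, the constitutive HSP70, had 2306 ± 628 and 1364 ± 170 CPM (SD, n = 5 each; log2 fold change -0.76, SE 0.19, edgeR adjusted p = 0.291, DESeq2 adjusted p = 0.0157). The list's mean had a Pearson correlation of -0.048 (Spearman -0.176) with that of the 10 genes over the libraries, centred within groups.

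**Figure D4:**
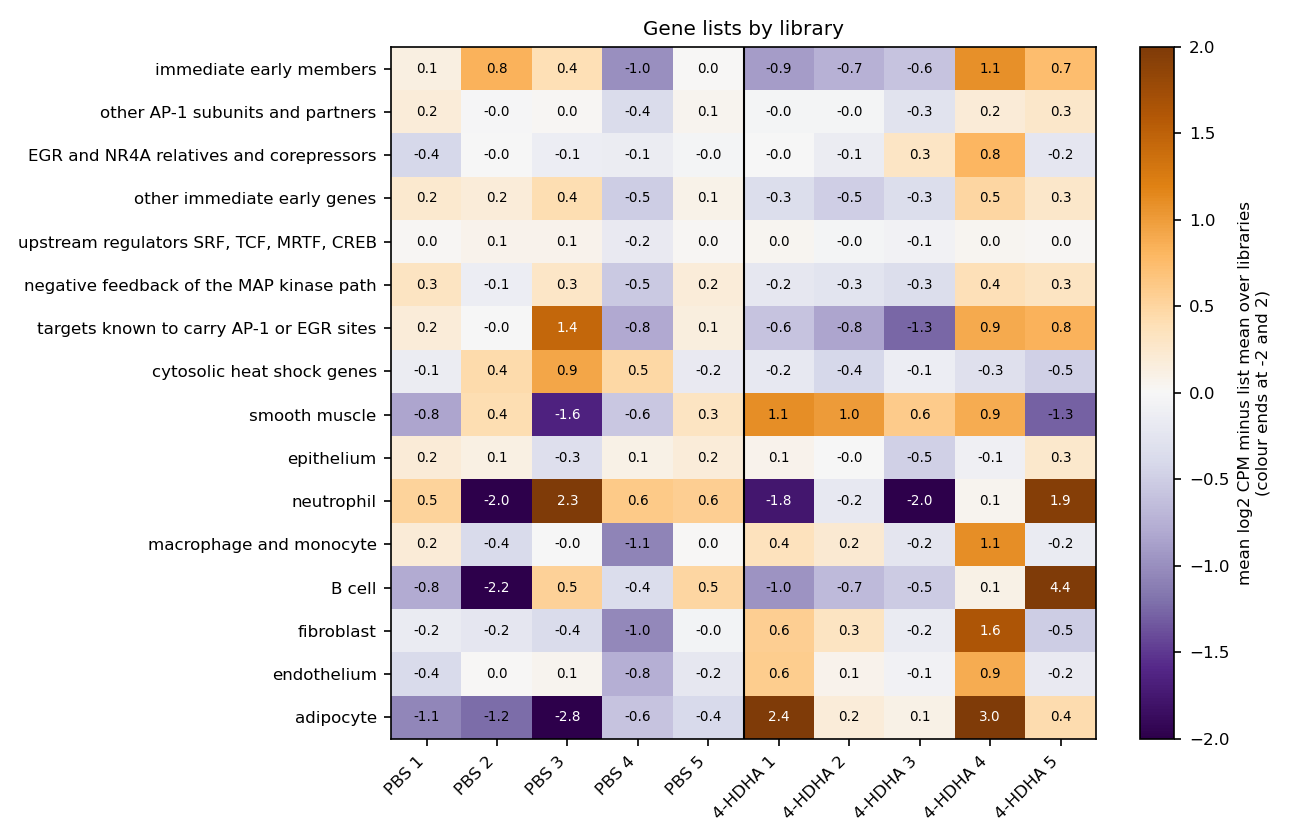
Mean log2 CPM of each gene list in each library minus the list's mean over the 10 libraries (colour, ending at -2 and 2, and printed value), with PBS libraries left of the line and 4-HDHA libraries right of it. The 10 genes, the other immediate early genes and the feedback genes are lowest in PBS replicate 4 and highest in 4-HDHA replicate 4, and so are the macrophage, fibroblast and endothelium lists. The row named cytosolic heat shock genes also holds the mitochondrial chaperonin genes Hspd1 and Hspe1.

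The map of gene lists by library places cell type markers beside the 10 genes. PBS replicate 4 and 4-HDHA replicate 4 were also the lowest and the highest library for 3 lists of cell type markers. For 12 macrophage and monocyte markers the summed level was 504 to 1105 CPM with PBS and 713 to 1907 CPM with 4-HDHA. It was 1136 to 2755 and 1612 to 7531 CPM for 10 fibroblast markers, and 64.1 to 114.5 and 99.8 to 190.1 CPM for 9 endothelial markers. All markers of these 3 lists were detected in every library. The Pearson correlations of their means with that of the 10 genes, centred within groups over 10 libraries, were 0.501, 0.408 and 0.481. Without the 2 libraries farthest from the median they were -0.117, -0.271 and -0.021, so the likeness rested on those 2 libraries. The part of these cells in the levels of the 10 genes was not tested.

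The other marker lists are given in the same way, with the correlation after the 2 farthest libraries were left out. For 12 neutrophil markers, summing to 26.4 to 552 CPM with PBS and 49.5 to 615 CPM with 4-HDHA, the correlation was 0.272 (Spearman 0.321, 0.341 without them). PBS replicate 2 had the fewest neutrophil transcripts, 2.05 below the list mean on the log2 scale, while the 10 genes stood 0.84 above theirs in it. Ngp, Camp and Mpo, made by immature neutrophils, were at 0 in some libraries. For 12 epithelial markers, summing to 12880 to 21170 and 13990 to 21360 CPM, the correlation was 0.105 (Spearman 0.127, 0.241 without them). For 12 smooth muscle markers, summing to 1192 to 5635 and 1616 to 9000 CPM, it was -0.272 (Spearman -0.188, -0.517 without them). For the 10 B cell markers it was 0.351 (Spearman 0.248, 0.554 without them), and Cr2 was at 0 in some library. For 8 adipocyte markers, summing to 20.5 to 30.5 and 40.7 to 223 CPM, it was 0.073 (Spearman -0.018, -0.211 without them), with Adipoq, Plin1, Lep and Retn at 0 in some libraries. With a smooth muscle, neutrophil or B cell covariate, 0 of the 10 genes passed the adjusted threshold, as in the fit without one. Those fits therefore cannot show the part of these cells, which was not tested.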

How the data were processed

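RNA of mouse colon was measured in 10 libraries by poly(A) RNA-seq with dUTP-marked strands, per the labels' protocols. Per the submitters' processing notes, the build was mm10 and the tools included StringTie 1.3.4d, HISAT2 2.0.4, cutadapt 1.9, DESeq2 and edgeR, with order and settings not given in the sources used here. Deposited by the authors were raw counts of 55401 genes, as whole numbers. They also deposited FPKM values, fragments per length of gene scaled to library size, in an annotated table of 32132 genes whose counts differed from the count table in 0 cells. Groups and replicate numbers were taken from the labels.

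Testing used edgeR 4.0.16 (R 4.3.3) with TMM normalization, filterByExpr (19615 genes kept), robust quasi-likelihood F test of 4-HDHA against PBS, and Benjamini-Hochberg adjustment over all genes tested, with a threshold of 0.05. The comparison was refitted without PBS replicate 4. Log2 fold changes set 4-HDHA over PBS, the standard error (SE) is the one implied by the F test, and intervals are at 95%. CPM were scaled with the TMM factors, and log2 CPM used a prior count of 2. Levels were compared between genes in FPKM only. On simulated counts with the libraries' own means, this test recovered 36 of 100 genes changed by 2 times and 75 of 100 changed by 4 times, with 2 false calls. The changed genes were drawn at random from all genes tested, whose median biological coefficient of variation was 0.315. That of the 10 members was 0.593, so these shares do not apply to them. Depth was 50915365 to 66470519 counts per library. PCR copies were not marked with molecular identifiers.

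The 10 members and the gene lists were chosen with earlier results of these data known. Named beside the members were up to 3 genes with the smallest edgeR p of each pathway list and of the heat shock list, and the 8 genes most like the mean of the members; 1 gene that this rule names is not reported here. Correlations are descriptions over libraries and carry no p. Alternatives were DESeq2 1.42.0, limma 3.58.1 (voom with quality weights, and limma-trend on log2 FPKM with a pseudocount of 1 or 0.1), RLE and upper quartile normalization, other filters on low counts, a replicate block, covariates, and each library left out in turn.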

Additional observations from a re-analysis of the deposited data

Results flagged for a closer look

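In 6 cases 1 library stood apart from the other 4 of its group by Dixon's criterion for 5 values at the 95% level, out of 78 groups looked at (39 named genes in 2 groups). Chance gives about 1 in 20, here 3.9, if the groups are independent and the values normally spread. These were CPM not put on a log scale, of genes that vary together over the same libraries. The 6 cases therefore cannot be weighed against 3.9. Fosb did so in both groups, at 13.8 CPM in PBS replicate 2 and at 20.4 CPM in 4-HDHA replicate 4. 4-HDHA replicate 4 also stood above its group for the EGR corepressor gene Nab2, at 16 CPM, for Zfp36l1 of the feedback list, at 182 CPM, and for Csf1, at 43.6 CPM. Hsph1, a heat shock gene of the HSP110 family, was highest in 4-HDHA replicate 3, at 40.9 CPM.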

How the results depend on the processing

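With 5 libraries a group and the wide spread of these genes, small differences could not be detected. Log2 fold changes of -1.46 (Fosl1) and 1.43 (Egr3) did not pass the adjusted threshold either. The number of members with an adjusted p under 0.05 was 0 in every alternative, the lowest adjusted p being 0.225. With an unadjusted p under 0.05 it was 0 (14.8% of all genes tested), with exceptions given here beside the share of all genes in the same fit. It was 1 with DESeq2 (Egr3, 11.8% of all genes) and 2 with limma voom and quality weights (Fosl1 and Egr1, 20.2%). With the smooth muscle list as a covariate it was 1 (Egr3, 7.28%). With each library left out it was 0 to 1. These were Jun without PBS replicate 5 (16.8%) and Egr3 without 4-HDHA replicate 1, 2 or 3 (10.8%, 9.5% and 18.8%). In 9 libraries, without PBS replicate 4, it was 0 (8.98% of all genes), but 2 with DESeq2 (Fosl1 and Egr3, 7.88%) and 2 with the replicate block (Fosl1 and Egr1, 7.37%). Of 220 fold changes of members under 22 alternatives, 205 kept their sign. With limma voom and quality weights the sign turned for Fos (-0.28), Egr2 (-0.47), Egr3 (-0.22) and Tpbg (-0.20), and with the B cell covariate, chosen after seeing the data, for Egr2 (-0.23) and Tpbg (-0.006). Leaving out libraries turned it for Fos (-0.17 to 0.25), Fosb (-0.32 to 1.28), Egr2 (-0.20 to 0.33), Atf3 (-0.40 to 0.12) and Tpbg (-0.10 to 0.29). It left the sign of Fosl1 (-2.01 to -0.74), Jun (0.17 to 0.46), Junb (-0.39 to -0.09), Egr1 (-1.02 to -0.20), Egr3 (0.34 to 1.70) and Nr4a1 (-0.81 to -0.03) as it was. With a replicate block Egr2 turned to -0.071 and the unadjusted calls over all genes moved from 2911 to 2437. The replicate numbers did not pair the libraries: correlations of same-numbered libraries over the 2000 most variable genes lay between -0.149 and 0.0529, and 1 of 5 libraries was closest to its own number. DESeq2 alone gave adjusted calls to named genes, for Nab1, Dnaja1, Hsph1 and Hspa8. The causes were not tested.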
